A study of Homo sapiens and Mus musculus with 4 samples.

Results

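ATF4 peaks of KG1a cells were described here across the genes they touched. KG1a is a human acute myeloid leukaemia cell line, an established line kept in culture, and was grown in medium with 20% fetal bovine serum. A ChIP library, for which an antibody against ATF4 was used, and an input library made without antibody together gave 1 deposited peak list, and neither carried a further treatment or genotype in the labels. The series also holds a list from bone marrow of C57BL/6 mice, with its own ChIP and input library. The KG1a list had 873 peaks, and all 860 of them on chromosomes 1 to 22 were taken, out of 83961 peaks in both lists. A peak here is only an interval on GRCh38, with no height, score or depth, and with 1 library of each kind no value has a replicate check. A peak list carries no expression, so the labelled cell type could not be checked against marker genes. A single cell line stands for 1 patient's leukaemia and not for blood-forming cells in general.

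ATF4 is a basic leucine zipper transcription factor of the integrated stress response. When kinases that sense amino acid shortage, misfolded protein or haem deficiency phosphorylate the initiation factor eIF2, most translation slows while ATF4 messenger RNA is translated better. ATF4 pairs with C/EBP family proteins and binds a composite element that joins a C/EBP and an ATF part of a site, and it is known for switching on genes that import and make amino acids and that charge tRNAs. The element was searched here as TGATGNAA, where N is any base, on both strands, and its exact form as TGATGCAA.

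The sequences under the peaks at stress and tRNA-charging genes are shown first, because they carry that element. They come from RefSeq promoter windows (GRCh38.p14), each 300 bases long, with 250 before and 50 after an annotated start. Of 10 elements that lay in such a window and in a peak, the 9 below are printed 5′ to 3′ on the strand on which the element reads TGATGNAA. The element is in capitals.
LOC102724467 distal site: ccccgcgagggTGATGCAAccttcgcatac
LOC102724467 proximal site: ggcccgttggcTGATGCAAcacagctcaga
CHAC1: cctggcaggagTGATGCAAcggcaggggag
AARS1: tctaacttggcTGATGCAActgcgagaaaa
LOC124904731: caggaggaagcTGATGAAAtcctggccaac
GARS1: ggctcggagcaTGATGAAAtcgccgcgtaa
HERPUD1: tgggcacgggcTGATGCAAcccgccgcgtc
SLC3A2: ggagcTGATGTAAggagtcctgca
TARS1: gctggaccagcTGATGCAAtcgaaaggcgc

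CHAC1, which encodes an enzyme that degrades glutathione, had its element at chr15:40953262-40953269, on the strand opposite to the gene and 209 bp before the start. HERPUD1, a gene of endoplasmic reticulum protein degradation, had it at chr16:56931966-56931973, 176 bp before the start and 0.5 bp from the centre of its peak. AARS1, the alanyl-tRNA synthetase gene, had it at chr16:70289686-70289693, 187 bp before the start. In GARS1 and TARS1, which encode the glycyl- and threonyl-tRNA synthetases, the element lay beside an annotated start inside the gene. For GARS1 it was at chr7:30594845-30594852, 33 bp before a start that lies 143 bp into the gene. For TARS1 it was at chr5:33440967-33440974, 2 bp after a start that lies 269 bp into the gene. These elements all lay within 136.5 bp of the centre of their peak. The tenth element under a peak, at chr1:32817348-32817355, was in a window of S100PBP, whose peak was also that of YARS1, the tyrosyl-tRNA synthetase gene.

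Both long non-coding RNA sites printed above lay far from protein-coding gene ends. The window with more than 1 element under its peak belonged to an uncharacterised long non-coding RNA gene, LOC102724467. Its window held the exact element at chr16:87779311-87779318 and again at chr16:87779187-87779194, on opposite strands, 170 and 46 bp before the start. The peak over them was 1023 bp wide and stood in place 6 of the deposited list, 13.0 kb from the nearest end of a protein-coding gene, KLHDC4. A second long non-coding RNA gene, LOC124904731, had the form TGATGAAA at chr19:47244309-47244316 under the peak of place 14. The nearest protein-coding gene end there was that of BBC3, which encodes the pro-apoptotic protein PUMA, 11.5 kb away. The upstream 250 bases of 3 genes show how the element sits in its promoter, again in capitals and in the direction of each gene. CHAC1 is at chr15:40953221-40953470 (+ strand), HERPUD1 at chr16:56931892-56932141 (+ strand) and LOC102724467 at chr16:87779149-87779398 (- strand).
CHAC1: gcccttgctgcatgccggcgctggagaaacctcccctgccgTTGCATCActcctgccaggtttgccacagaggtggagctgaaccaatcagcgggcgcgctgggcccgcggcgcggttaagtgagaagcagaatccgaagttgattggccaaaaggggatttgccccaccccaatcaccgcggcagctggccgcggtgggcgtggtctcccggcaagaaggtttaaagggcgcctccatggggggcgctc
HERPUD1: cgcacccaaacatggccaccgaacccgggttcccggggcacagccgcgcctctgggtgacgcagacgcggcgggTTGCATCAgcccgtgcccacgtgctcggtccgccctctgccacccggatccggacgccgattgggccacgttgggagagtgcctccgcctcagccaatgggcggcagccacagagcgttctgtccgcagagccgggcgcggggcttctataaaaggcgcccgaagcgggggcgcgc
LOC102724467: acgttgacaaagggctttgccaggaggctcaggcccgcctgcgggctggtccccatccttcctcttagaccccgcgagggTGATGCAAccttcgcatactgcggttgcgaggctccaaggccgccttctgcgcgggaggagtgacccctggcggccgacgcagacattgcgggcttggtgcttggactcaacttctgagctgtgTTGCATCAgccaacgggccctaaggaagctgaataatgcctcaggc

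The letters left free in the search were also described. The sixth base, left free in the search, was C in 7 of 10, against 23.8% of the 1178 elements in all promoter windows. The base before the element was C in 7 of 10 (27.4% over all windows), and the base after it was C in 6 of 10 (21.2% over all windows). SLC3A2 had the form TGATGTAA at chr11:62881736-62881743, and GARS1 and LOC124904731 had TGATGAAA. These are descriptions of 10 sites, 2 of which share a window.

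**Figure D1:**
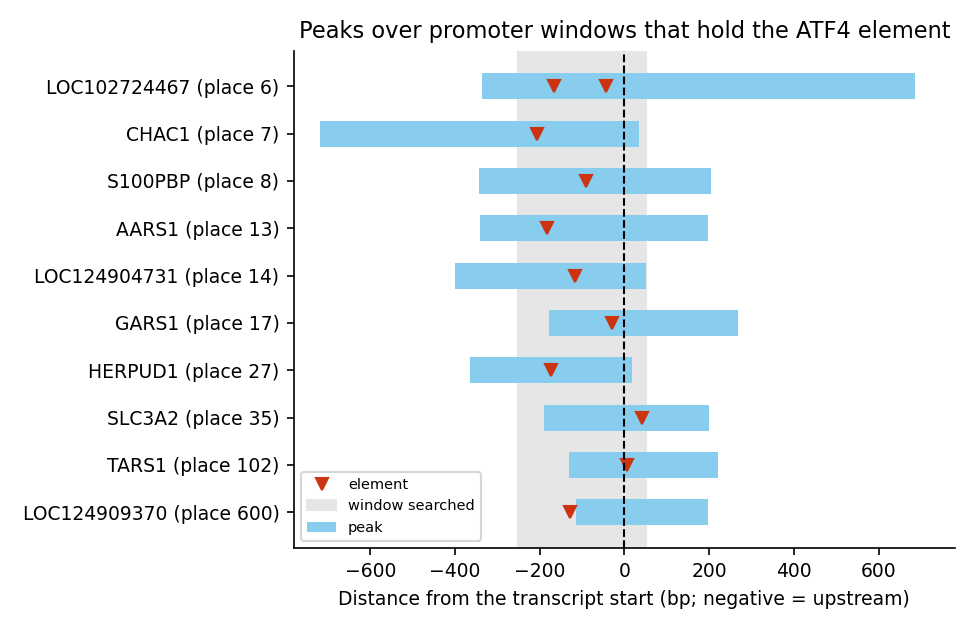
Peaks (blue bars) over the promoter windows that hold the ATF4 element, drawn by distance in bp from the annotated start of each window, with the element as red triangles and the 300 bp window searched in grey. The elements lie inside the peak in every gene drawn except LOC124909370, where the element is just upstream of the peak edge.

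Promoter windows under a peak held the element more often than promoter windows at large. Of 33725 windows of protein-coding and long non-coding RNA genes on chromosomes 1 to 22, 70 were overlapped by a peak (0.208%). Counted by gene, a window was overlapped in 65 of 26246 genes (0.248%) and in 51 of 15101 protein-coding genes (0.338%). The element was in 10 of these 70, or 14.3% (Wilson 95% interval 7.95 to 24.3%, for counting error only), and in 3.64% of all windows (3.45 to 3.85%). The exact form was in 7 of 70, or 10.0% (4.93 to 19.2%), and in 0.866% of all windows (0.772 to 0.971%). In both cases the intervals do not overlap. A window was counted whether its element lay in the peak or beside it. In the window of LOC124909370, counted in both shares, the exact form lay outside the peak.

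For 4 of the other 5 motifs the intervals overlapped. The cyclic AMP response element TGACGTCA was in 1 of 70 windows, 1.43% (0.253 to 7.66%), against 1.87% of all. The C/EBP palindrome TTGCGCAA was in 0 of 70, which allows up to 5.20%, against 0.154% of all. CCAAT, which NF-Y binds, was in 38.6% (28.1 to 50.3%) against 34.4%, and the TATA box TATAAA in 5.71% (2.24 to 13.8%) against 11.6%. The GC box GGGCGG was the exception, in 42 of 70 (48.3 to 70.7%) against 45.0% of all (44.5 to 45.6%). Among windows of protein-coding genes alone its intervals overlapped, at 66.1% (53.0 to 77.1%) against 56.6% (55.9 to 57.2%). Each motif was read on both strands, the exact element is a part of the looser one, and a match is a match of letters only.

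**Figure D2:**
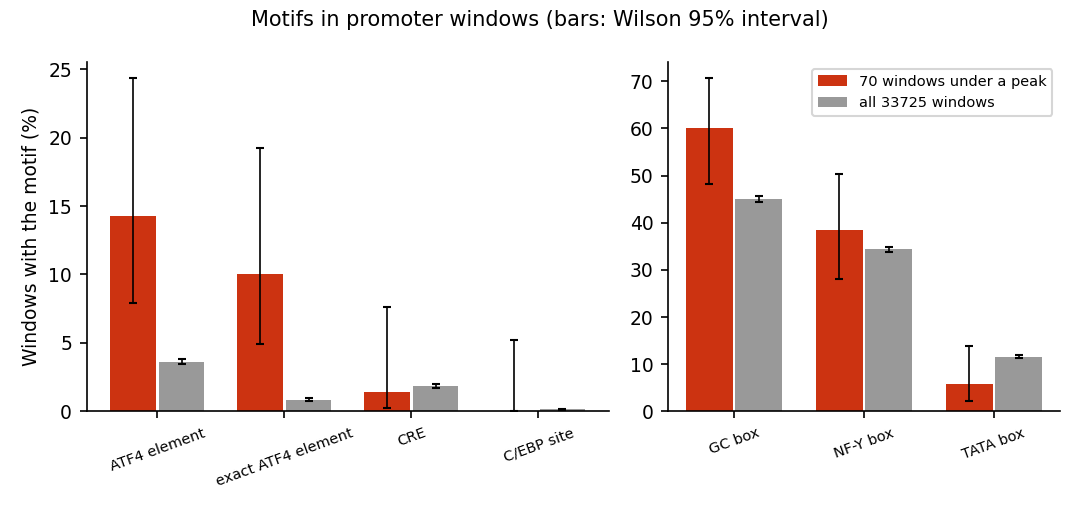
Share of promoter windows (%) that hold each motif, for the 70 windows under a KG1a peak (red) and all 33725 windows (grey), with Wilson 95% intervals. The ATF4 element, at 14.3 against 3.64%, and its exact form, at 10.0 against 0.866%, have intervals that do not overlap, as has the GC box of the right panel.

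Read the other way, most promoters with the element had no listed peak. Of 546 protein-coding genes with the element in a window, 7 had such a window under a peak, 1.28% (Wilson 95% interval 0.622 to 2.62%). Of 14555 protein-coding genes without it, 44 had a window under a peak, 0.302% (0.225 to 0.406%). For the exact element the share was 5 of 136, or 3.68% (1.58 to 8.32%), against 46 of 14965, or 0.307% (0.231 to 0.410%). The 7 protein-coding genes were CHAC1, S100PBP, AARS1, GARS1, HERPUD1, SLC3A2 and TARS1.

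Across all genes, 101 of 19126 protein-coding genes had a peak centre within 1 kb of a gene end (0.528%). These genes shared 88 peaks, 10.2% of the 860 (Wilson 95% interval 8.38 to 12.4%). A further 390 peaks lay inside a protein-coding gene farther from its ends, and 382 lay outside genes. In all, 425 protein-coding genes (2.22%) had a peak centre inside them. Peaks near a gene end were on the whole little wider than the rest, with a median of 352 bp (quartiles 331 and 410) against 340 bp (323 and 367). Wide peaks were more frequent among them, as 14 of 88 exceeded 500 bp, 15.9% (9.72 to 24.9%), against 35 of 772, 4.53% (3.28 to 6.24%). Neighbouring peaks are not independent, and the intervals cover counting error only.

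Where a gene had a peak near an end, that end was mostly its start, though most peaks of the list lay near no gene end. The promoter windows gave the direction of 82 of the 101 genes, and in 68 of these the nearer end was the start, 82.9% (Wilson 95% interval 73.4 to 89.5%). The centre lay upstream of the start in 44 genes and downstream in 24. Its median distance from the start was 244 bp, with quartiles of 134 and 500 bp, and it was 100 bp or less in 16 genes. The start of a gene here is its outer boundary, and in 16 of the 68 genes the nearest listed start lay at another distance. For 3 of these, DDX19B, CTNNA3 and PFKFB4, no listed start lay within 1 kb, and for CTNNA3 the centre lay at -68246.5 bp from the nearest one. COX8A, a subunit gene of cytochrome c oxidase, had the closest centre, 18 bp inside the gene.

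**Figure D3:**
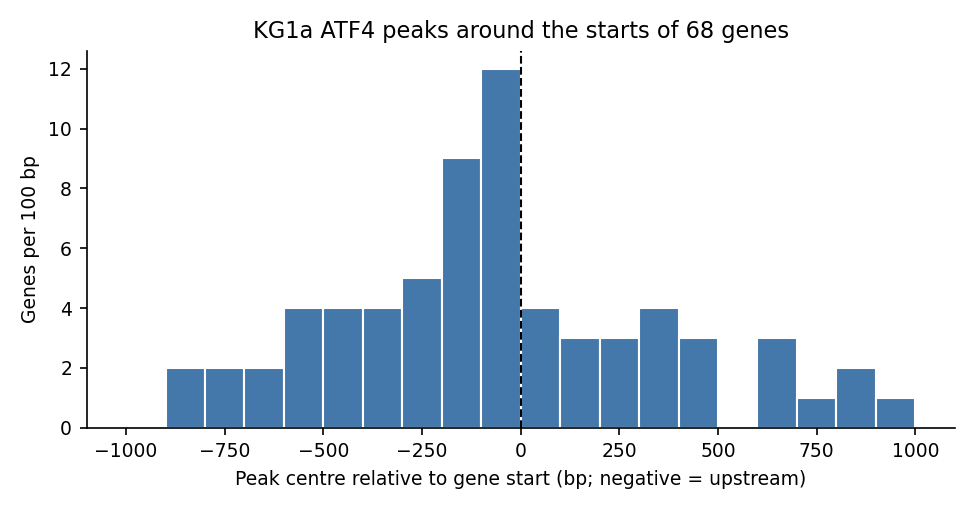
Number of genes per 100 bp by the distance of the peak centre from the gene start in bp, upstream negative, for the 68 genes whose start is the nearer end. The bars are highest just upstream of the start, and 44 of the 68 genes lie on the upstream side.

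In the other 14 genes the peak was at the far end, where transcripts finish. They included PDHX, ECHDC2, FAM53B, CDKL2, TTF1, ATG2A and NOSIP. MRPL34, a gene of the mitochondrial ribosome, was counted at its far end, 867.5 bp inside the gene. The same peak lay 104 bp after another annotated start of MRPL34, which was the 1 far-end gene of the 14 with a listed start within 1 kb.

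Starts inside genes added members that the gene ends had missed. SLC3A2 encodes the heavy chain that pairs with several amino acid transporter light chains, SLC7A11 among them. Its peak, at chr11:62881510-62881900, was centred 6 bp after a start that lies 25590 bp into the gene, and it stood in place 35 of the list. Windows of RNF166, CCDC77, ZNF892 and GLMN, at starts 2827, 12297, 1166 and 71857 bp into the gene, were also under a peak. None of these 4 windows held the element, and the parts of the peaks outside the windows were not searched.

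Translation genes with a peak reached from tRNA charging to initiation and elongation. Of 21 cytosolic tRNA synthetase genes, 4 had a peak centre close to an end (AARS1, GARS1, TARS1 and YARS1), 19.05% beside 0.528% of all protein-coding genes. Of the 16 with a promoter window, 7 held the element, which over all protein-coding genes was in 3.62%. These were AARS1, GARS1 and TARS1, each with a peak, and CARS1, IARS1, MARS1 and NARS1, for which the nearest listed peak was 1112, 125.9, 7095 and 5988 kb away. The separate list of mitochondrial tRNA synthetase genes had 0 of 17 with a peak. AARS1, GARS1, TARS1 and YARS1 were counted in the cytosolic list alone, whether or not their products also serve mitochondria. The 0 of 17 holds for the symbols of the mitochondrial list only.

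Among initiation factors 1 of 53 had a peak centre within 1 kb of an end (1.89% beside 0.528% of all protein-coding genes). This was EIF2S2, the gene of the beta subunit of eIF2. EIF4EBP1, also in that list, had a peak inside the gene just beyond the limit, 1.007 kb from the nearer end, in place 73. The EIF2S2 peak, at chr20:34111981-34112472, was 492 bp wide and centred 16.5 bp inside the high-coordinate end. Among elongation and termination factors 1 of 16 had a peak within 1 kb (6.25%), EEF1A1, which encodes the factor that brings charged tRNAs to the ribosome. The EEF1A1 peak covered the start, with its centre 398 bp inside the gene. Its promoter window held no element, but the centre of the peak lay outside that window. The part of the EEF1A1 peak outside the window was not searched. Further from the usual target lists, peaks lay at HEMK1, a methyltransferase gene for a translation release factor (centre 410 bp after the start), and at DDX56, a helicase gene of ribosome assembly (203 bp before it). Cytosolic ribosomal proteins had 0 of 83, and tRNA modification, processing and export genes 0 of 45, beside 0.528% of all protein-coding genes. At so low a share, a 0 in lists of this size does not set them apart from other genes.

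Amino acid genes had peaks at enzymes and at both chains of the cystine exchanger. Of 42 amino acid and one-carbon enzyme genes, 4 had a peak, 9.52% beside 0.528% of all protein-coding genes, among them GPT2, MTHFD2 and PCK2. PCK2 encodes the mitochondrial form of phosphoenolpyruvate carboxykinase. Its peak, at chr14:24093741-24094241, was 501 bp wide and centred 180 bp before the start, inside the neighbouring gene NRL. The MTHFD2 peak was centred 611.5 bp after the start. Of the 28 genes with a promoter window, 4 held the element (ASNS, BCAT1, GOT1 and MTHFD1L), beside 3.62% of all protein-coding genes, and none of these 4 had a peak within 1 kb.

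Of 48 amino acid transporter genes, 1 had a peak centre so placed (2.08% beside 0.528% of all), SLC7A11, whose product imports cystine in exchange for glutamate. Its centre was 97.5 bp outside the gene, and the peak, 316 bp wide, was near the narrowest in the list. The SLC3A2 peak at the inner start was at the gene of its partner chain. The element was in a window of 6 of 38 transporter genes with an entry (SLC1A3, SLC1A4, SLC1A5, SLC38A1, SLC3A2 and SLC7A1), beside 3.62% of all protein-coding genes. Among glutathione genes 1 of 37 had a peak, CHAC1 (2.70%, where the share with a peak over all protein-coding genes was 0.528%).

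Of 41 stress response genes, 2 had a peak within 1 kb (CHAC1 and HERPUD1), 4.88% beside 0.528% of all protein-coding genes. ATF3, a stress-induced relative of ATF4, had a peak inside the gene, 12.1 kb from the nearer end, at chr1:212608462-212608889 in place 22. The element was in a window of 7 of 38 stress genes with an entry (ATF3, CEBPG, CHAC1, FGF21, HERPUD1, JDP2 and PPP1R15B), where the share over all protein-coding genes was 3.62%. CHAC1 and HERPUD1 were the 2 of these with a peak at an end. Some genes often read as ATF4 targets lacked both a listed peak and a match in the windows searched. Sequence outside the windows was not searched, so whether the element lies there cannot be told. The windows of DDIT3, TRIB3, PSAT1 and SESN2 held no match, and no listed peak lay within 1 kb of these genes, of ASNS or of ATF4. For ASNS the looser element was in 1 of 2 windows, and for SESN2, a gene that restrains mTORC1 when leucine is short, the nearest peak lay 3470 kb away. The basic leucine zipper genes as a family had 0 of 57 with a peak within 1 kb.

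**Figure D4:**
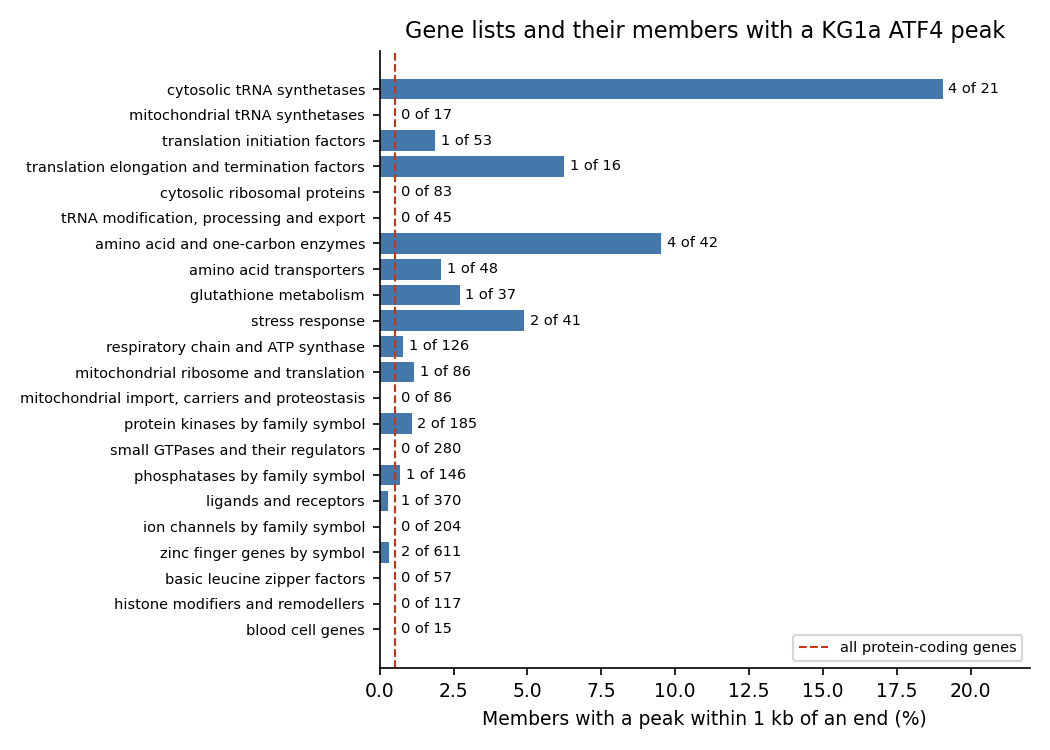
Share of members (%) with a peak centre within 1 kb of a gene end for 22 gene lists, with the number of members beside each bar and the share over all protein-coding genes, 0.528%, as a dashed line. The bars for cytosolic tRNA synthetases (4 of 21) and amino acid and one-carbon enzymes (4 of 42) are the longest.

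Mitochondrial genes had single peaks in 2 of the 3 lists. The respiratory chain and ATP synthase list had 1 of 126, COX8A, and its peak lay at chr11:63974450-63974826 in place 34. The mitochondrial ribosome and translation list had 1 of 86, MRPL34, and import, carriers and proteostasis had 0 of 86. These shares are 0.794%, 1.16% and 0%, beside 0.528% of all protein-coding genes, and rest on 1 gene or none each. By function, TMEM65, a gene of a mitochondrial inner membrane protein, PDHX, a pyruvate dehydrogenase component, and ECHDC2 also had a peak, at PDHX and ECHDC2 at the far end. Of the amino acid genes, MTHFD2, GPT2 and PCK2 encode proteins that work in mitochondria.

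Signalling genes with a peak, placed by hand in a group with no fixed total, numbered 14. The peak was at the start in 9 and at the far end in 2, and 3 had no known direction. Over all genes with a peak, these ends were the nearer in 68 and 14. MTOR, the gene of the kinase that couples amino acid supply to growth, had a peak of 449 bp at chr1:11262693-11263141, centred 366 bp before the start, in place 511. MAPK14, the stress kinase p38 alpha, had one of 327 bp at chr6:36027223-36027549, centred 422 bp before the start. STRADA, whose product activates the kinase LKB1 upstream of AMPK, had one at chr17:63702375-63702706. The promoter window of MTOR held no element, but the centre of the peak lay outside that window. The part of the peak outside the window was not searched.

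Other signalling genes with a peak encode a cytokine, adaptors and a pseudokinase. CSF3, the gene of granulocyte colony-stimulating factor, had a peak of 517 bp at chr17:40017259-40017775 in place 5, centred 296 bp inside the gene. SH2B3 encodes the adaptor LNK, which restrains cytokine receptor signalling in blood stem cells, and had a peak 698 bp after its start. STK40, a pseudokinase gene, had one of 509 bp in place 9, centred 745 bp before the start. NCK1, which encodes an SH2 and SH3 adaptor, had its peak centre 30.0 bp before the start, over the shared promoter with the divergent transcript NCK1-DT. Of the lists picked by symbol, that of protein kinases had 2 of 185 with a peak (1.08%) and that of phosphatases 1 of 146 (0.685%). Ligands and receptors had 1 of 370 (0.270%). These shares stand beside 0.528% of all protein-coding genes. The kinase list counts the pseudokinase gene STK40 and does not hold MTOR, so it is not a full count of kinases. The list of small GTPases and their regulators had 0 of 280 and that of ion channels 0 of 204, both limited to the symbols searched. The list of blood cell genes had 0 of 15.

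Outside the usual ATF4 lists, 19 of the 101 genes with a peak were placed by hand under transcription, chromatin and RNA processing, a group with no fixed total. Of these, 14 had the peak at their start and 1 at the far end, and 4 had no known direction. They included RCOR3, PCGF1 and BAZ1B (chromatin regulators), MED30 and INTS10 (Mediator and Integrator subunits), and SF3A1, BUD31, THOC1 and SDE2 (splicing and RNA export). MYC, the proto-oncogene, had a peak at chr8:127736161-127736497, centred 895 bp inside the gene. DUSP11, a phosphatase gene whose product acts on RNA, had a peak of 581 bp centred 237 bp after its start. Zinc finger genes, the largest list, had 2 of 611 (ZNF256 and ZNF257), 0.327% beside 0.528% of all protein-coding genes. A list of histone modifiers and chromatin remodellers, picked by symbol, had 0 of 117. That list does not hold RCOR3, PCGF1 or BAZ1B, so its 0 does not cover all chromatin regulators. A group of 11 genes serves the endoplasmic reticulum, vesicles, the lysosome or autophagy. Among them, HERPUD1, TXNDC12, COPB1 and YIF1A belong to the endoplasmic reticulum or its traffic with the Golgi, and TMEM41B, ATG2A, ATG4D and ZFYVE1 have roles in or at autophagosome formation. A group of 9 serves ubiquitin, ubiquitin-like proteins and folding, with USP33 and USP36 (deubiquitinases), UBA3 (the NEDD8-activating enzyme), COPS2 (a COP9 signalosome subunit) and CCT4 (a chaperonin subunit). The remaining 29 genes were not placed in a group. Their wide peaks included those of TMEM260 (604 bp), SLC22A16, an organic cation transporter gene (567 bp), and APOL2 (503 bp).

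Functional groups differed in peak width and in place in the deposited list. The median peak width was 496 bp for the 6 amino acid and redox genes and 447 bp for the 9 translation genes, against 342 bp for the 14 signalling genes, 360 bp for the 19 transcription and RNA genes and 317 bp for the 9 ubiquitin and folding genes. The median place was 17 for amino acid genes, 83 for translation and 332, 264 and 431 for the other 3 in that order. What orders the list is not stated in the labels or the file, and the groups were set with the genes in view, so no test was made.

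**Figure D5:**
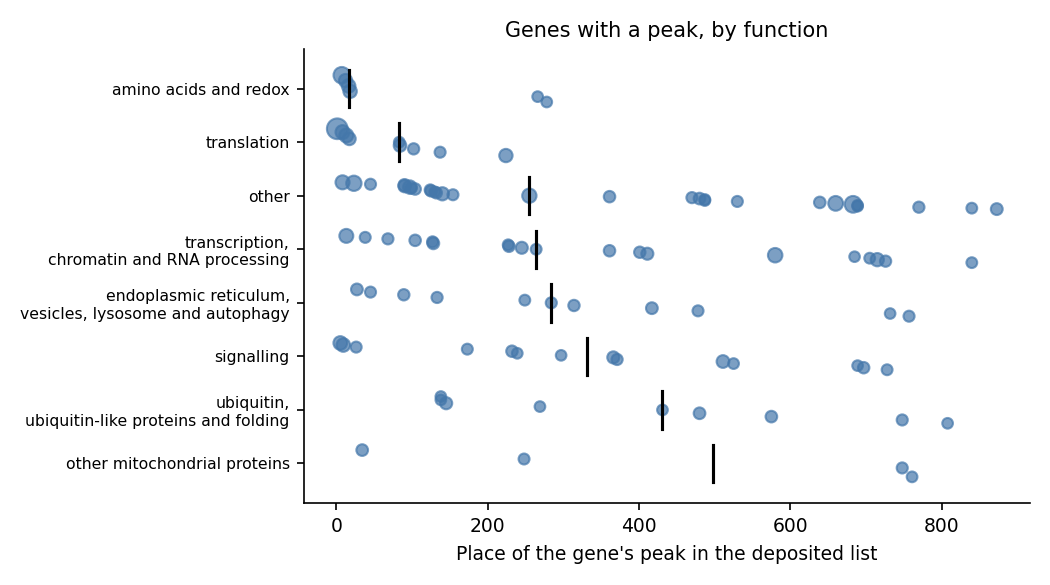
Place of each gene's peak in the deposited list (x axis) by functional group, with point area proportional to peak width and the group median as a line. Amino acid and translation genes lie towards the left, with medians of 17 and 83, and signalling and ubiquitin genes spread along the list.

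Several peaks touched more than 1 gene, so the gene count exceeds the count of peaks. Of the 88 peaks, 76 had 1 gene, 11 had 2 and 1 had 3 (PFKFB4, UCN2 and COL7A1). In 7 of the 11 pairs the genes start side by side and run apart, AARS1 with DDX19B, BTF3L4 with TXNDC12, CDCA5 with ZFPL1, CCT4 with COMMD1, CCDC157 with SF3A1, COPS2 with GALK2 and BUD31 with PDAP1. In 2 pairs the far ends meet (GMPR2 with TINF2, and ECHDC2 with ZYG11A). The other 2 pairs were S100PBP with YARS1 and TGS1 with TMEM68. The UCN2 start lay 37.5 bp from the centre of the peak counted for PFKFB4 at 682.5 bp. Which gene such a peak serves cannot be told from the list.

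Long non-coding RNA genes with a peak centre within 1 kb of an end numbered 47 of 17795 (0.264%), of which 34 carry only a LOC symbol. For 14 of their 47 peaks a protein-coding gene end also lay within 1 kb, as for TARS1-DT, NCK1-DT and USP6NL-AS1. For the other 33 genes no protein-coding gene end lay within 1 kb of the peak centre, LOC102724467 and LOC124904731 among them, and in 12 of the 33 the centre lay inside a protein-coding gene. MIATNB had a peak of 728 bp centred 22.5 bp from its start, 42.1 kb from the nearest protein-coding gene end. Where the table gave a direction, 23 had the start as the nearer end and 14 the far end, a less uneven split than the 68 and 14 of protein-coding genes. LOC124909370 had the exact element at chr3:40721125-40721132, in its window but outside its peak.

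Transfer RNA genes overlapped by a peak were 3 of 439 (0.683%). The serine gene TRS-TGA1-1 lay under a peak of 646 bp at chr10:67764119-67764764, the same peak that was counted for CTNNA3, a catenin gene whose outer boundary is 847.5 bp away. The lysine gene TRK-TTT3-2 lay under one of 459 bp at chr1:204506756-204507214, with TRK-TTT3-1 close by. The alanine gene TRA-CGC1-1 was overlapped by one of 391 bp at chr6:26553549-26553939. Among microRNA genes 1 of 1793 was overlapped, MIR1539, by the 775 bp peak over the start of C18orf32.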

How the data were processed

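ATF4 ChIP and input libraries of KG1a cells, 1 of each, gave 1 deposited BED list of peak chromosome, start and end in 3 columns. The tools that the authors ran were MACS2, Bowtie2, deepTools and CASAVA 1.4, and the builds named were GRCh38 and GRCm38, per the submitters' processing notes; settings, thresholds and depth are not given in the sources used here, so no precision can be given for a peak. Starts were read as counted from 0 and printed from 1. Genes came from a RefSeq table of GRCh38.p14, and starts, strands and sequences from RefSeq promoter windows, matched by gene ID for 15101 of 19126 protein-coding genes. The centre of a peak is its midpoint. Motifs were searched by exact match on both strands with Python 3.11.15, and intervals are Wilson 95% intervals (scipy 1.17.1). No chance test was made.

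The 22 lists of 2663 genes, written from symbols and symbol patterns, the functional groups and the genes described were chosen with earlier results of these data known. Genes were named where they belonged to a list, had one of the 15 widest or earliest peaks near a gene end, held the element under a peak, or shared a peak. ATF4, ASNS, DDIT3, TRIB3, PSAT1 and SESN2 were named whatever their result. Other genes were chosen after their values were seen. One gene counted in a list and a group is not reported here by name. The code was tested on simulated data. Alternatives were other distances, overlaps, parts of the list, chromosomes, starts and motifs.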

Additional observations from a re-analysis of the deposited data

Results flagged for a closer look

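Peaks on chromosome X and on scaffolds were outside the 860 described, and 9 and 4 of the 873 peaks lay there. The X peak of place 19, at chrX:24054386-24054819 and 434 bp wide, had its centre 0.354 kb outside EIF2S3, the gene of the gamma subunit of eIF2. With EIF2S2 on chromosome 20, 2 of the eIF2 subunit genes had a peak at an end. The other 8 X peaks were farther than 1 kb from a protein-coding gene end, the nearest being 3.94 kb inside GK. No control level was at hand for either count, so neither was read as high or low.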

How the results depend on the processing

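Of 38 alternatives over 8 results, 26 left the count within 1.5 times its value or the share or median within its interval, and 12 did not. Of the 6 alternatives for the share of promoter windows with the element, one took the exact form and gave 10%. That is the share of a stricter motif, found in 0.866% of all windows. The others kept the looser element and gave 12.5 to 19.6%. A distance of 5 kb raised the genes with a peak to 217, the share of peaks to 19.9%, the list members from 21 to 35, the long non-coding RNA genes to 135 and the genes with a peak near the start to 124. A distance of 500 bp lowered the share to 7.21% and the long non-coding RNA genes to 30. The widest 50% of the list kept 59 genes, 43 of them counted at the start, and the first 50% in deposited order gave a share of 14.3% with 28 long non-coding RNA genes. With the centre within 1 kb, 6 tRNA genes counted in place of 3 overlapped. The use of all listed starts, of genes in place of windows, of protein-coding windows alone and of the first 50% for the element were chosen after seeing the data. No paired analysis was possible because each group has 1 library and no result comes from a test.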

Other observations

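Early places of the list also held peaks away from gene ends. Of the 47 peaks on chromosomes 1 to 22 in the first 50 places, 16 lay within 1 kb of a protein-coding gene end and a further 15 lay inside a gene. MAVS, the adaptor gene of cytosolic RNA sensing, had 2 of these, in places 4 and 11, at chr20:3864320-3864765 and chr20:3865713-3866112, 947 bp apart. ZIC2, a zinc finger gene, had one of 546 bp just beyond the limit, 1.04 kb from an end. CORO1A, which encodes an actin-binding protein of leukocytes, IL17RA, an interleukin receptor gene, and HK2, a hexokinase gene, had one inside the gene at 2.26, 2.83 and 26.4 kb from the nearer end. The peak of place 2, at chr1:125180067-125180430, lay 3717 kb from the nearest protein-coding gene end. That of place 3, at chr16:46390526-46390845, lay 188 kb from SHCBP1. How well reads map in these regions was not checked.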
